A study of Homo sapiens with 6 samples.

Results

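The plasminogen activators *PLAU* and *PLAT*, the urokinase receptor *PLAUR* and the inhibitor *SERPINB2* were followed in H226 cells after knockdown of the lncRNA *SWINGN* (*LINC00565*). They were found by gene name in a table of read counts and make up 4 of its 17222 gene names. The 4 genes were chosen by their known roles and on their measured difference between the conditions below, so that difference is described here and not tested. H226 cells are an established human line grown from a squamous carcinoma of the lung. Cells were transfected transiently with ASO_CTRL, a control antisense oligonucleotide, or with ASO_LINC#3, an oligonucleotide directed against *SWINGN*, and collected 48 h later. Each condition has 3 sequenced replicates. The knockdown in these libraries rests on 1 oligonucleotide in 1 cell line. *SWINGN* itself was not analysed here, which leaves its depletion unchecked in these libraries. The study measured *SWINGN* by RT-qPCR in depleted H226 cells. A general statement of the study gives biological triplicates for its experiments, while the labels of these libraries give no more than replicate numbers, and p-values measure only the spread between these libraries.

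Plasminogen is an inactive precursor that circulates in blood and binds to cell surfaces. Urokinase (uPA, from *PLAU*) and tissue plasminogen activator (tPA, from *PLAT*) cut it into plasmin, a protease that dissolves fibrin and degrades extracellular matrix. Urokinase acts mostly at the cell surface, bound to its receptor uPAR (from *PLAUR*), whereas tPA acts mostly on fibrin. SERPINB2, also named plasminogen activator inhibitor type 2, blocks urokinase and, less readily, tPA, and much of it stays inside the cell. In carcinomas this system is known for its part in invasion and in the remodelling of the surrounding tissue.

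Reads were counted per gene name, and 3686828 to 10546786 reads fell on genes in a library. The smallest library was ASO_LINC#3 replicate 3, which is therefore the least precise. Of all reads, 13.2% to 14.1% in ASO_CTRL and 15.8% to 16.4% in ASO_LINC#3 were not aligned. Levels are given as CPM, the read count relative to the TMM-scaled total of reads on genes, and differences as log2 fold changes of ASO_LINC#3 over ASO_CTRL with their standard errors (SE). Where a condition has 3 values they are in the order of replicates 1, 2 and 3, and a level with ± is the mean and SD over these n = 3 libraries. In bulk libraries, fewer cells that express a gene and less of its RNA per cell cannot be told apart. Of the markers listed for squamous carcinoma, *KRT5* had 103 ± 12.3 CPM in ASO_CTRL and 69.0 ± 7.87 CPM in ASO_LINC#3, and *KRT6A*, which was too low to be tested, had 0, 0 and 1 reads and 14, 5 and 4 reads. Neither overlapped between conditions, and they differed in opposite directions. The other 3 had no entry among the gene names used here, so nothing is read on them. All 4 mesothelial markers listed were detected, with a summed level of 634 to 834 CPM in ASO_CTRL and 209 to 323 CPM in ASO_LINC#3. Most of this difference was *CALB2* (601 and 154 CPM), whereas *UPK3B* (49.4 and 26.5 CPM), *WT1* (46.0 and 36.6 CPM) and *MSLN* (29.1 and 31.1 CPM) did not pass both thresholds. The keratins of simple epithelium, 3 of 4 listed, summed to 8080 to 8470 CPM in ASO_CTRL and 4920 to 8670 CPM in ASO_LINC#3. Among them *KRT18* had 2924, 2881 and 5260 CPM in ASO_LINC#3, the highest in replicate 3. Of 5 leukocyte markers, listed because monocytes express *PLAUR* and *SERPINB2*, *CD14* and *CD68* summed to 2.56 to 3.61 CPM in ASO_CTRL and 3.53 to 8.68 CPM in ASO_LINC#3. They differed in opposite directions, *CD68* with means of 1.37 and 4.13 CPM and no overlap, *CD14* with 1.77 and 1.48 CPM, and neither passed both thresholds. The other leukocyte markers and all endothelial and fibroblast markers listed had no entry among these gene names either. The part of these markers in the results below was not tested.

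The bases upstream of the start sites are shown first, because the 4 genes were higher together and AP-1 and NF-kB, transcription factors of growth and inflammatory signals, are known regulators of this system. RefSeq promoters of build GRCh38.p14 matched *PLAU*, *PLAUR* and *SERPINB2*. The promoter of *PLAT* was not examined, so nothing is read on it. Each run holds the 250 bases before a start site, read 5′ to 3′ on the strand of the gene, with motif matches in capitals. For *PLAU*, the later of its 2 start sites is shown.
PLAUR, chr19:43670170-43670419, minus strand: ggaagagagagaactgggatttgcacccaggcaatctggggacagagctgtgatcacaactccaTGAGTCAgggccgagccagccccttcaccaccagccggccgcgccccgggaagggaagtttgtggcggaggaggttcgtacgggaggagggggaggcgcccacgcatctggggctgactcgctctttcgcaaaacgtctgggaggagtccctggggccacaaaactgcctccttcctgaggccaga
SERPINB2, chr18:63887455-63887704, plus strand: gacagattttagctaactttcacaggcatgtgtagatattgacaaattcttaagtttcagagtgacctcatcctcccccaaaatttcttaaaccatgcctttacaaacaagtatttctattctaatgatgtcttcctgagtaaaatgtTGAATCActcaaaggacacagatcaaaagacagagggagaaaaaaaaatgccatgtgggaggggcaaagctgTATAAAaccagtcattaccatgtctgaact
PLAU, chr10:73910882-73911131, plus strand: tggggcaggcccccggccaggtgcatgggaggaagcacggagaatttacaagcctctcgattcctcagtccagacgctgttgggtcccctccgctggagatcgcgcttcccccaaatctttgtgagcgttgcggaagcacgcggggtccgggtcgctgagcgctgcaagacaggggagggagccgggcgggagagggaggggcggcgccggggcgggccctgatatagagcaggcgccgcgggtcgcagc

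The AP-1 motif TGANTCA, which reads the same on both strands, was found once in the *PLAUR* run, as TGAGTCA beginning 186 bases before the start site. It was found once in the *SERPINB2* run, as TGAATCA beginning 102 bases before it, where a TATA box (TATAAA) also began at 30 bases. Neither start site of *PLAU* had a match to these letters in its window. Bases farther upstream were not searched for any of these genes. Of 35116 promoter entries, 6.57% held TGANTCA, 4.2% its form TGAGTCA and 10.7% TATAAA on either strand. For NF-kB a fixed pattern of letters was searched, which was found in 1.73% of all entries and in none of these windows. Sites of NF-kB that differ from this pattern are missed by such a search. Whether these windows hold such sites was not tested. These matches describe letters only.

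*PLAT* was the activator with the higher level in both conditions. In GRCh37 it spans 42032236 to 42065227 of chromosome 8, minus strand. Its level was 90.1, 70.9 and 77.5 CPM in the control libraries and 1533, 1682 and 1237 CPM in the knockdown libraries. The conditions did not overlap, and the lowest knockdown library stood 13.7-fold above the highest control library. The means were 79.5 ± 9.76 and 1484 ± 227 CPM, an 18.7-fold ratio and a log2 fold change of 4.22 (SE 0.17). By this value *PLAT* ranked 12 among the 14660 genes tested. The lowest of the 3 knockdown libraries was replicate 3, the smallest library, at a log2 change of 3.96 from the control mean, compared with 4.27 and 4.41 in replicates 1 and 2. The fitted change stayed between 4.12 and 4.34 with any 1 library left out.

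*PLAU*, the gene of urokinase, was close to the limit of detection. It lies on the plus strand of chromosome 10, from 75668935 to 75677254. It had 3, 2 and 1 reads in the control libraries and 27, 20 and 15 reads in the knockdown libraries. In CPM these were 0.40, 0.34 and 0.095 against 3.97, 3.42 and 4.07. All knockdown libraries were above all controls, and the knockdown libraries were close to each other while the controls rest on single reads. Over all libraries of a condition the ratio of reads, scaled for library size, was 15, with an exact 95% interval from 6.52 to 42.4 that covers counting error only. Set against a floor of 3 reads in a control library, which is at most 0.516 CPM, the mean of the knockdown libraries was 7.4-fold higher. This floor leaves out the counting error of the knockdown libraries, and the lower end of the interval, 6.52, is taken as the lower bound. The fitted log2 fold change of 3.80 (SE 0.44) is no bound, since it was 2.88 with a prior count of 2. It was 4.22 without ASO_CTRL replicate 1 and 3.26 without ASO_CTRL replicate 3, the control library with a single read. *PLAU* passed the filter on low counts through the knockdown libraries only. Of its exon bases in GENCODE, 31.0% also belong to exons of *C10orf55*, a gene on the opposite strand. The strand setting of the counting is not given in the sources used here, and without strand, reads of both genes cannot be told apart there.

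*PLAUR*, the gene of the urokinase receptor, had the smallest difference of the 4 genes. It lies on the minus strand of chromosome 19, from 44150247 to 44174699. Its level was 183, 161 and 175 CPM in the control libraries and 447, 427 and 521 CPM in the knockdown libraries. The conditions did not overlap, and the lowest knockdown library was 2.33-fold above the highest control. The means were 173 ± 11.1 and 465 ± 49.6 CPM, a log2 fold change of 1.42 (SE 0.13). Here ASO_LINC#3 replicate 3 was the highest knockdown library, with a log2 change of 1.59 against 1.37 and 1.30 in replicates 1 and 2. This is the opposite order to that seen for *PLAT*. Leaving out each library in turn kept the fitted change between 1.34 and 1.48.

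*SERPINB2*, the inhibitor, went in the same direction as the activators and by about as much as *PLAT*. It lies on the plus strand of chromosome 18, from 61538926 to 61571122. Its level was 13.3, 12.1 and 18.6 CPM in the control libraries and 246, 278 and 231 CPM in the knockdown libraries. The lowest knockdown library was 12.4-fold above the highest control library, which was ASO_CTRL replicate 3. The means were 14.7 ± 3.47 and 252 ± 24.3 CPM, a 17.2-fold ratio and a log2 fold change of 4.08 (SE 0.19), rank 14 of the genes tested. It was 4.30 without ASO_CTRL replicate 3 and between 3.97 and 4.13 without any other library. Exons of a neighbouring gene model on the same strand, ENSG00000289724, share 547 of its 2741 exon bases in GENCODE, so reads there are uncertain.

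**Figure D1:**
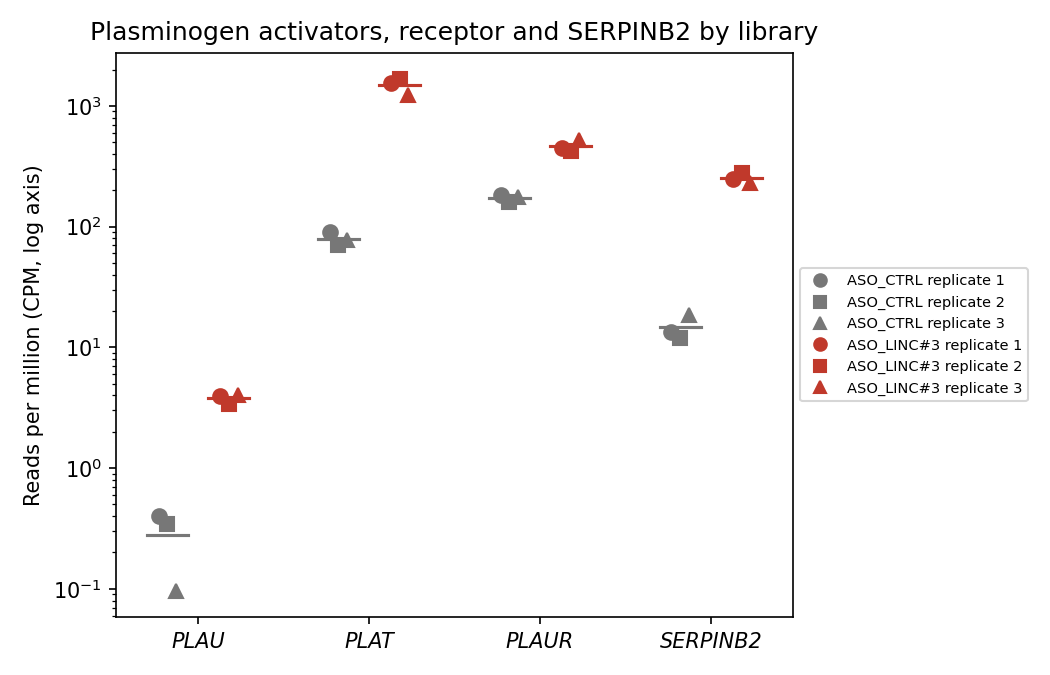
Level of each gene in every library, in CPM on a log axis, with ASO_CTRL in grey, ASO_LINC#3 in red, a symbol for each replicate and a line at the mean of 3 replicates. In each of the 4 genes the red points lie above all grey points, by the widest margin for *PLAT* (79.5 to 1484 CPM) and the narrowest for *PLAUR* (173 to 465 CPM), and the grey points of *PLAU* rest on 1 to 3 reads.

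All 4 genes passed both thresholds of the study (adjusted p-value under 0.01, absolute log2 fold change over 0.5) and in all 4 the knockdown libraries lay above the controls. Of all tested genes, 7.54% were past both thresholds, made up of 4.91% upwards and 2.63% downwards. The libraries of the conditions did not overlap in 36.1% of tested genes, and in 18.7% all knockdown libraries lay above all controls. Since this contrast was known when the genes were chosen, nothing is read from these counts. With the low counts of *PLAU* apart, the other 3 genes had at least 70 reads in every library.

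Read counts of a pair of genes from the same library can be set against each other without any scaling between libraries. The ratio of *PLAT* to *SERPINB2* reads was 6.76, 5.89 and 4.16 in the control libraries and 6.23, 6.04 and 5.36 in the knockdown libraries. The knockdown values lay inside the range of the controls, although both genes had far more reads after knockdown. The ratio of *PLAT* to *PLAUR* reads was 0.492, 0.439 and 0.442 in ASO_CTRL and 3.43, 3.94 and 2.37 in ASO_LINC#3. These do not overlap, the lowest knockdown value being above the highest control value. The ratio of *PLAUR* to *SERPINB2* reads was 13.7, 13.4 and 9.42 in ASO_CTRL and 1.82, 1.54 and 2.26 in ASO_LINC#3. These do not overlap either, with the lower ratios after knockdown. Reads also depend on transcript length, so only the shift of a ratio between conditions is compared here, not its size.

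**Figure D2:**
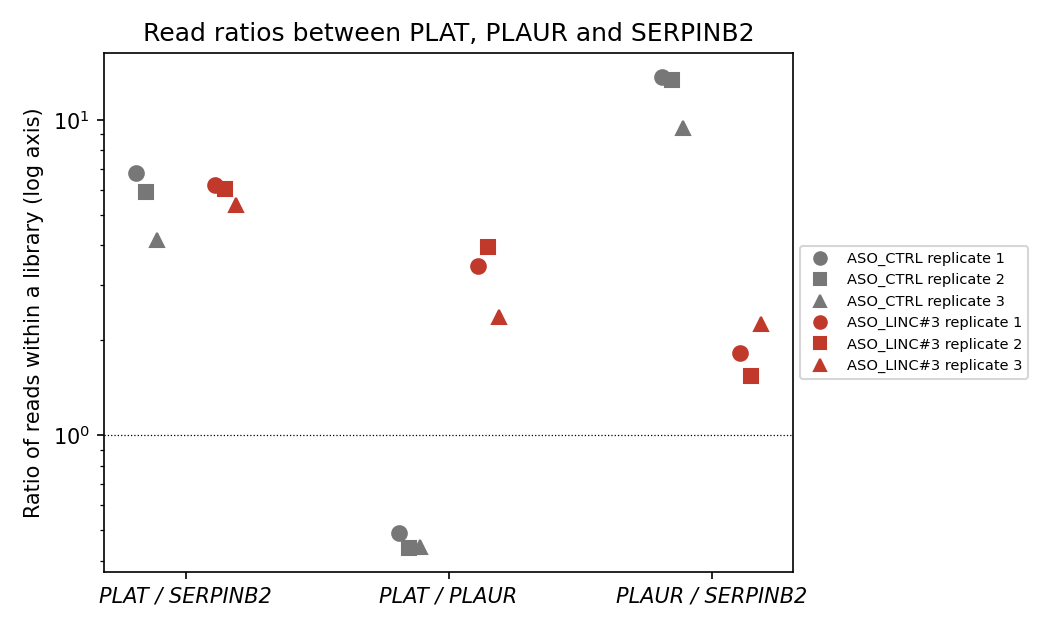
Ratio of reads between pairs of genes within each library, on a log axis with a dotted line at equal reads, ASO_CTRL in grey and ASO_LINC#3 in red, with a symbol for each replicate. The *PLAT* to *SERPINB2* ratios of the conditions overlap (4.16 to 6.76 and 5.36 to 6.23), whereas those of *PLAT* to *PLAUR* do not (at most 0.492 in ASO_CTRL, at least 2.37 in ASO_LINC#3).

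Between genes, levels are compared only per length, as CPM per kilobase of the MANE Select transcript. In ASO_CTRL the order was *PLAUR* (127 ± 8.09 CPM per kilobase), *PLAT* (26.0 ± 3.19), *SERPINB2* (7.69 ± 1.82) and *PLAU* (0.12 ± 0.070), with no overlap between neighbours in this order. In ASO_LINC#3 the order was *PLAT* (485 ± 74.0 CPM per kilobase), *PLAUR* (340 ± 36.3), *SERPINB2* (132 ± 12.7) and *PLAU* (1.63 ± 0.15). *PLAT* and *PLAUR* had changed places, although in replicate 3 they were close, at 404 and 381 CPM per kilobase. With all exon bases of a gene as its length, which adds most to *PLAT* and *PLAUR*, the order was the same in both conditions, and *PLAUR* (104 ± 11.1) and *SERPINB2* (91.8 ± 8.86) then overlapped in ASO_LINC#3. The first strand was primed from poly(A) tails, so reads need not spread evenly along a transcript, and these orders hold only as far as they do.

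The transcripts most like each gene were found by the Euclidean distance between profiles of log2 CPM over the 6 libraries. Each profile was taken relative to its control mean, and the search covered the tested genes reported here. *PLAT* and *SERPINB2* were each other's nearest gene, at a distance of 0.565. The next to both was *MMP1*, an interstitial collagenase, at 0.875 from *PLAT* and 0.754 from *SERPINB2*. They were followed by *HMGA2*, an architectural chromatin protein, for *PLAT* (1.05) and by *ESM1*, a secreted proteoglycan, for *SERPINB2* (0.864). *PLAUR* was nearest to *TRIB3* (0.218), a pseudokinase of stress responses, *KLF6* (0.226), a zinc finger transcription factor, and *RP4-756G23.5* (0.245). *PLAU* was nearest to *DUSP5* (0.390), a phosphatase of ERK, *SLC2A3* (0.431), a glucose transporter, and *NLRP3* (0.518), an inflammasome sensor. The profiles use a prior count of 2, which shrinks the change of *PLAU* to between 2.72 and 2.95 in the knockdown libraries, so its neighbours depend on that count. *MMP1*, with 1, 0 and 1 control reads, is shrunk to between 3.68 and 3.94 from a fitted 5.585. Its place beside *PLAT* and *SERPINB2* therefore depends on that count too. Control reads were also few for *HMGA2* (5, 1 and 2), *NLRP3* (10, 5 and 8) and *ESM1* (8, 8 and 14). *PLAU* stood 2.46 from *PLAT* and 2.59 from *PLAUR*. These distances describe 6 libraries of 2 conditions and follow mainly the size of the difference between them.

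The rest of the plasminogen system was taken from 4 lists of genes, and the serpins, the inhibitor family of *SERPINB2*, from 9 further rows with that name. Of 47 listed genes, 32 had counts and 30 were tested. ASO_LINC#3 against ASO_CTRL put 7 of them past both thresholds upwards and 1 downwards by edgeR's quasi-likelihood test, that is 26.7% of the tested genes beside 7.54% of all genes tested. The genes past the thresholds include *MMP1* and *MMP9*, which passed the filter on low counts only with the knockdown libraries. The lists were also chosen with results of these data known, so nothing is read from the difference between these shares. Nothing is read from the shares of the single lists below either. Their median log2 fold change was 0.35, and that of all tested genes was -0.0027. Without ASO_LINC#3 replicate 3 the number was 12, and without any other library it was 6. Plasminogen itself (*PLG*) had no entry among the gene names used here.

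None of the tested receptors that bind plasminogen on cells passed both thresholds. Of 4 tested genes, edgeR, DESeq2 and limma-voom each called 0, and 1 (*ANXA2*) had an unadjusted p under 0.05 in edgeR. *ENO1*, an enzyme of glycolysis that also binds plasminogen, and *PLGRKT*, a membrane receptor for plasminogen, had log2 fold changes of -0.095 and -0.13. *ANXA2* and *S100A10* encode the subunits of the annexin A2 complex, a docking site shared by plasminogen and tPA. *ANXA2* had 4162 ± 46.6 CPM in ASO_CTRL and 5750 ± 439 CPM in ASO_LINC#3, a log2 fold change of 0.47 (adjusted p = 0.0143 from edgeR) that missed both thresholds. *S100A10* had a log2 fold change of -0.21 (adjusted p = 0.286 from edgeR), and the knockdown libraries lay within the range of the controls.

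Of 12 tested partners and clearance receptors of uPAR, 1 rose, 1 fell and 10 did not pass. That is 16.7% called, beside 7.54% of all genes tested. *ITGA5*, the alpha chain of the fibronectin receptor with which uPAR cooperates, rose (26.9 ± 4.30 CPM in the controls, 91.5 ± 18.4 CPM after knockdown), with a log2 fold change of 1.76 (SE 0.18, adjusted p = 0.000167 from edgeR). *VTN*, which encodes vitronectin, the matrix ligand of uPAR, fell (5.48 ± 1.10 CPM in the controls, 2.24 ± 0.19 CPM after knockdown), with a log2 fold change of -1.29 (SE 0.28, adjusted p = 0.00991 from edgeR). This call held in 1 of 8 other settings and, among 6 fits with a library left out, only without ASO_LINC#3 replicate 3 (adjusted p up to 0.0541). *ITGAV*, the alpha chain of vitronectin receptors, had a log2 fold change of 0.75 (adjusted p = 0.0652 from edgeR), and *MRC2*, a collagen receptor that associates with uPAR, one of 0.53 (adjusted p = 0.0141 from edgeR). *ITGB1* and *ITGA3*, the partners with the most reads, had values of 0.45 and 0.32.

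Regulators of coagulation and fibrinolysis outside the serpins gave 3 increases among 7 tested genes, and the other 4 did not pass. That is 42.9% called, beside 7.54% of all genes tested. *F3*, tissue factor, which starts coagulation, rose (201 ± 10.7 CPM in the controls, 742 ± 99.0 CPM after knockdown), with a log2 fold change of 1.89 (adjusted p = 1.97e-05 from edgeR). *TFPI2*, an inhibitor of plasmin and other proteases in the matrix, rose (30.5 ± 3.33 CPM in the controls, 143 ± 18.8 CPM after knockdown), with a log2 fold change of 2.23 (adjusted p = 1.58e-05 from edgeR). *F2R*, the thrombin receptor PAR1, rose by 1.22 on the log2 scale (adjusted p = 0.000527 from edgeR). Each of these calls held in all 6 fits that left out 1 library. The related receptor gene *F2RL1*, with at most 18 reads in a library, had a log2 fold change of 1.61 and missed the threshold (adjusted p = 0.0127 from edgeR). *THBD*, thrombomodulin, had -0.64 and *F12*, factor XII, 0.11, neither past the threshold.

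In the list of possible targets of plasmin or an activator, 3 of 7 tested genes were past both thresholds upwards. The other 4 were not. Those past them are *MMP1*, *MMP9* and *MMP14* (42.9% called, beside 7.54% of all genes tested). *MMP1*, whose proenzyme plasmin can activate, had at most 1 read in each control library and 34, 26 and 20 reads in the knockdown libraries. Like *PLAU* it passed the filter on low counts through the knockdown libraries only, so its call is given no weight. The mean of the knockdown libraries was 9.6-fold above the floor of 3 reads in a control library, and the ratio of reads was 58.1, with an exact 95% counting interval from 15.6 to 488. *MMP9*, a gelatinase, rose (1.55 ± 0.65 CPM in the controls, 10.6 ± 0.21 CPM after knockdown), with a log2 fold change of 2.73 (adjusted p = 0.000166 from edgeR). Its control libraries had 16, 5 and 17 reads, too few to pass that filter on their own, so this call is given no weight either. *MMP14*, a membrane-bound collagenase known to be activated mainly by furin-like proteases, rose by 0.83 on the log2 scale (adjusted p = 0.00875 from edgeR). Among the fits that left out 1 library it kept its call only without ASO_LINC#3 replicate 3, with adjusted p up to 0.0540, and it lost it under the replicate block (adjusted p = 0.026 from edgeR). The growth factor genes *TGFB1* and *PDGFC*, whose products are made in latent forms, had log2 fold changes of 0.64 and 0.63 and missed the threshold.

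Of 9 other serpins described here, all tested, 3 rose (33.3%, beside 7.54% of all genes tested) and the other 6 did not pass, with a median log2 fold change of 0.62. *SERPINB8*, which lies beside *SERPINB2* on chromosome 18, rose (13.5 ± 1.40 CPM in the controls, 32.5 ± 4.98 CPM after knockdown), with a log2 fold change of 1.27 (SE 0.17, adjusted p = 0.000882 from edgeR). *SERPINB1*, an inhibitor of neutrophil proteases, rose by 0.97 (adjusted p = 0.0014 from edgeR) and *SERPING1*, the C1 inhibitor, by 0.85 (adjusted p = 0.00121 from edgeR). The call of *SERPING1* was lost without ASO_CTRL replicate 3 (adjusted p = 0.0148 from edgeR). *SERPINE2*, also an inhibitor of urokinase and tPA, had 50.2 ± 10.7 CPM in ASO_CTRL and 77.1 ± 1.96 CPM in ASO_LINC#3, a log2 fold change of 0.62 that missed the threshold (adjusted p = 0.0228 from edgeR). *SERPINB9* and *SERPINH1*, an inhibitor of granzyme B and a collagen chaperone, had values of -0.75 and -0.51, and *SERPINA1*, which inhibits elastase, 0.81, none past the threshold.

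**Figure D3:**
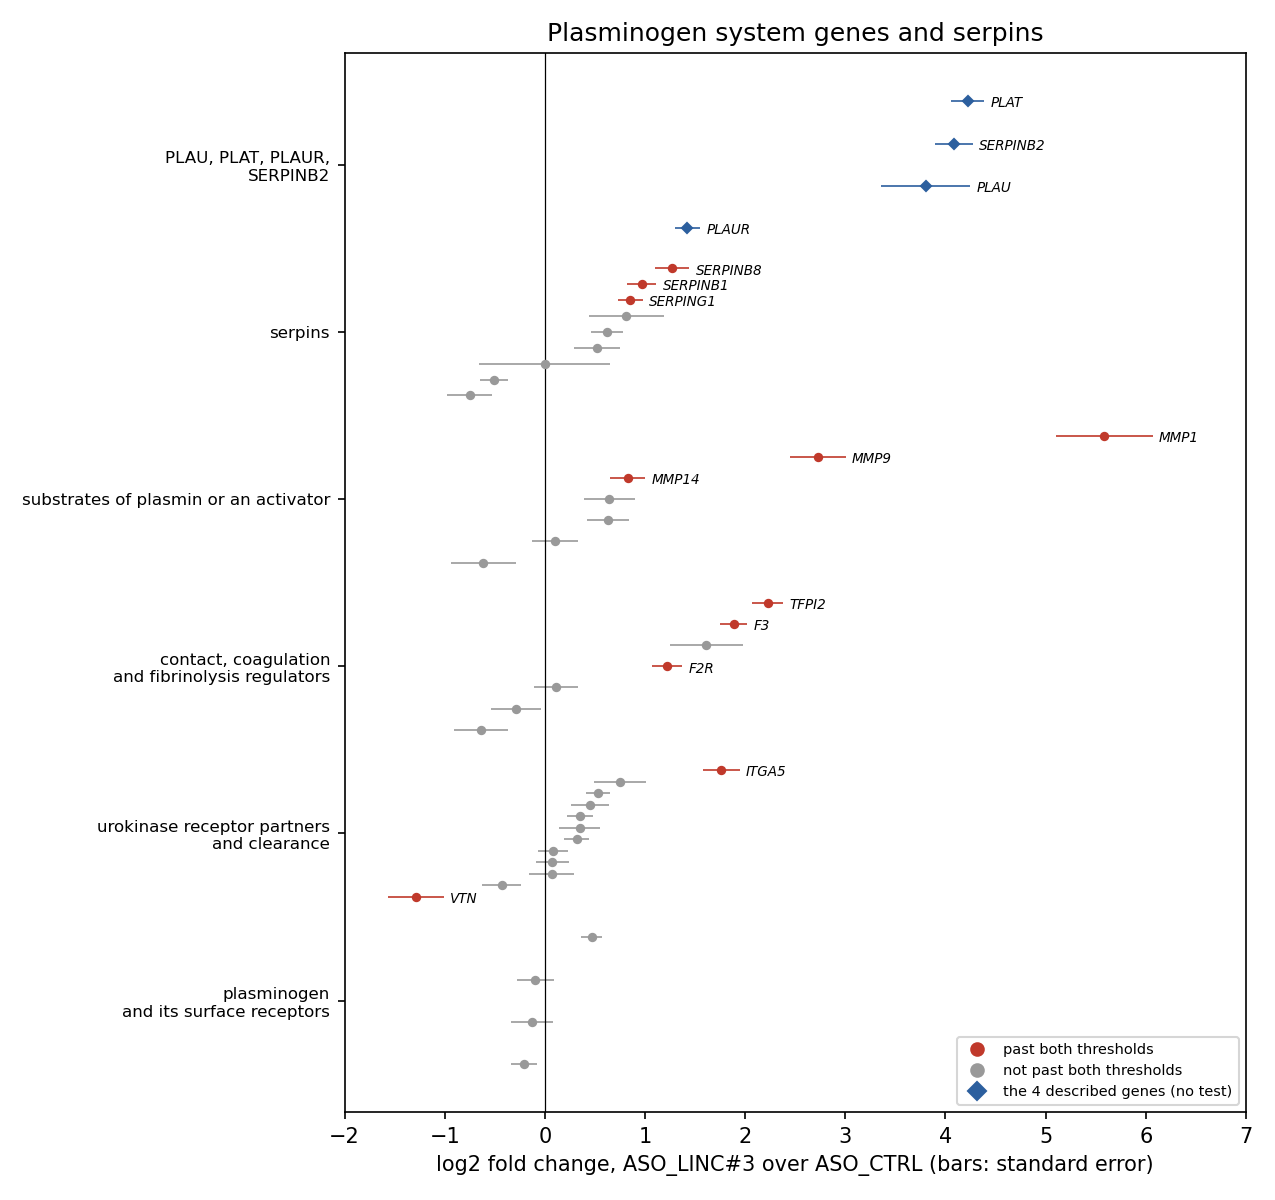
Log2 fold change of ASO_LINC#3 over ASO_CTRL for every tested gene of the lists and for the 4 described genes (blue), with standard errors as bars, where red points are past both thresholds and grey points are not. *PLAT*, *SERPINB2* and *PLAU* lie between 3.80 and 4.22, and among the listed genes *MMP1* alone has a larger fitted value, which like that of *PLAU* rests on control libraries with 3 or fewer reads and depends on the prior count.

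The genes beside the 4 loci were compared to see how far the difference extended along the chromosomes. They were picked by order, and their start sites lay up to 6417355 bp from that of the locus, the farthest beside *SERPINB2*. Of the 40 nearest tested genes, 5 on each side of each locus, 5 rose and 1 fell (15% called, beside 7.54% of all genes tested), and their median log2 fold change was 0.059. The number called was between 2 and 10 with 1 library left out, the highest without ASO_LINC#3 replicate 3, and 3 under the replicate block. Around *PLAT*, edgeR, DESeq2 and limma-voom each called 0 of 10 neighbours, and 4 had an unadjusted p under 0.05 in edgeR. The share of all genes under that p was not counted, so nothing is read from these 4. The 10 neighbours had log2 fold changes from -0.34 to 0.86. The nearest on either side, *AP3M2* and *IKBKB*, had 0.61 and 0.59 (adjusted p = 0.0435 and 0.0193 from edgeR). Beside *SERPINB2*, *SERPINB7* had -0.001 (SE 0.65) on one side and *SERPINB8* 1.27 on the other, at distances of 118757 and 98337 bp between start sites, and *KDSR*, at 504465 bp, rose by 0.95 (adjusted p = 0.00095 from edgeR). The neighbours of *PLAU*, *CAMK2G* and *VCL*, had 0.76 and 0.67 and missed the threshold (adjusted p = 0.046 and 0.0143 from edgeR), whereas *FUT11*, at 136901 bp, rose by 1.67 and *SAMD8*, at 1190409 bp, by 0.83. Beside *PLAUR*, *SMG9* had 0.13, *CADM4* fell by 0.94 on the log2 scale, and *RN7SL368P*, a copy of the 7SL RNA family that lies within the *PLAUR* gene on the same strand, rose by 1.62 from 2.06 to 6.20 CPM. The calls of *SAMD8*, *CADM4* and *RN7SL368P* held only without ASO_LINC#3 replicate 3 among the fits with a library left out, and that of *KDSR* was lost without ASO_CTRL replicate 3. Reads of this copy cannot be told from those of related copies or of unspliced *PLAUR* RNA. No neighbour reached the change of *PLAT*, *SERPINB2* or *PLAU*. These genes were chosen on this difference, and the value of *PLAU* rests on few control reads, so nothing is read from that gap.

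**Figure D4:**
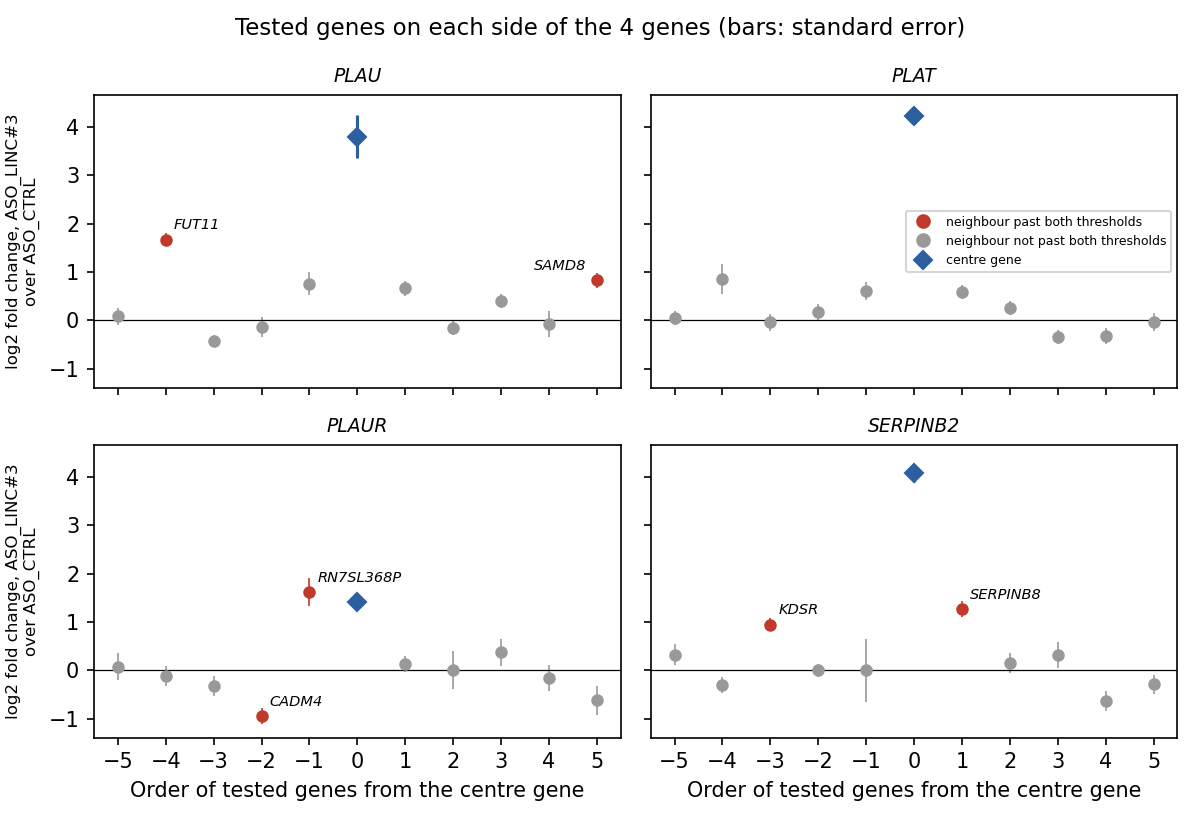
Log2 fold change of ASO_LINC#3 over ASO_CTRL, with standard errors, for the 5 nearest tested genes on each side of each locus in order along the chromosome, with the centre gene as a blue diamond and neighbours past both thresholds in red. The centre genes *PLAT*, *SERPINB2* and *PLAU* stand above all their neighbours, which reach at most 1.67, and the value of *PLAUR* is 1.42 beside 1.62 for *RN7SL368P*. The centre genes were chosen on this difference, so their height over the neighbours is not a test.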

How the data were processed

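RNA-seq of H226 cells transfected with ASO_CTRL or ASO_LINC#3 was analysed, with 3 libraries per condition and replicate numbers taken from the sample labels. The authors mapped reads with STAR (hg19) and deposited unnormalized counts for each gene name. How genes were counted, with which annotation and strand, is not given in the sources used here. The sample labels name H226 cells, whereas the sequencing methods of the study name BJ cells, and the labels were followed. The 4 closing rows of reads assigned to no gene, 24.8% to 28.1% of each library, were left out. The comparison used edgeR 4.0.16 (R 4.3.3) on the whole table (filterByExpr, 14660 genes, TMM, quasi-likelihood F-test, Benjamini-Hochberg). Called genes had an adjusted p-value under 0.01 and an absolute log2 fold change over 0.5. Standard errors were the log2 fold change divided by the square root of F. Libraries of a condition differed by more than sampling noise (chi-square per degree of freedom 2.63 to 15.6), so each counted as 1 replicate. The script was tested on simulated data.

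The genes described and the gene lists were chosen with earlier results of these data known. Named are the 4 genes, list genes past both thresholds, in each list the 2 others with the largest change and the 2 with the highest CPM, the 3 genes with the nearest profile, and for each locus the nearest tested gene on either side and called neighbours. The serpin list was to hold every row with that name other than *SERPINB2*, but the result of 1 such gene is not reported here, so its counts and median cover 9 serpins and not the whole family. Positions came from GENCODE v44 lifted to GRCh37, the release of which need not be that of the counting. Alternatives were other scalings, DESeq2 1.42.0, limma-voom (limma 3.58.1), other filters, an adjusted p-value of 0.05, a replicate block, a prior count of 2 and leaving out each library.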

Additional observations from a re-analysis of the deposited data

How the results depend on the processing

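The log2 fold changes of *PLAT*, *PLAUR* and *SERPINB2* moved by less than their spread between replicates under every alternative run (other scalings, DESeq2, limma-voom, other filters, a replicate block, a prior count of 2, leaving out each library). That of *PLAU* was 2.88 with a prior count of 2, ranged from 3.26 to 4.22 when 1 library was left out, and could not be fitted with at least 10 counts in every library. With that filter 5 genes of the 4 plasminogen lists were called in place of 8, since fewer were tested. With an adjusted p-value below 0.05, 6 serpins and 10 neighbour genes were called in place of 3 and 6. Leaving out 1 library gave 2 to 10 called neighbours, the highest number without ASO_LINC#3 replicate 3, and the cause was not tested. Over all genes 359 to 2616 were called in these fits, again with the highest number without ASO_LINC#3 replicate 3. The replicate block gave 3 called neighbours, 6 genes of the plasminogen lists and 656 of all genes in place of 1106. Whether the shared numbers pair the samples was not settled. Deviations of same-numbered libraries correlated at 0.059, -0.149 and -0.18, and those of other pairs at -0.142 to 0.194. Not every library correlated best with its own number. With 3 libraries centred on their own mean, such weak values cannot exclude a pairing. Depth limits *PLAU* and *MMP1*, with 3 or fewer reads in each control library.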
